A study of Mus musculus with 12 samples.

Results

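Mouse leukaemia cells that had received doxycycline on top of the oligonucleotide CpG1668 were compared with cells that had received CpG1668 alone. The comparison takes the 3 libraries labelled CpG1668+Dox and the 3 labelled CpG1668, 6 of the 12 libraries of the series, and the remaining 6 (3 PBS and 3 Dox) enter only where they are named. All 4 groups hold the same line, CMM-tetON-shStat3, labelled as acute myeloid leukaemia (AML) and named in the series title for inv(16), the inversion of human AML that fuses CBFB to MYH11. The line carries a hairpin RNA against Stat3 under a promoter that doxycycline (Dox) switches on, and its cells are marked by GFP and mCherry.

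The line was engrafted through a vein in NSG mice, an immunodeficient strain that lacks T, B and NK lymphocytes but keeps its own granulocytes, monocytes and red-cell precursors. Treatment into a vein started at about 1% leukaemia cells in the blood, with PBS, CpG1668, Dox, or CpG1668 together with Dox. The sources give the schedule once as 6 daily treatments and once as 3 treatments on alternate days. GFP+mCherry+ cells were sorted from the spleen 1 day after the last treatment. Every group carried the hairpin, and no group combined Dox with cells lacking it, so an effect of Dox itself and an effect of the hairpin cannot be told apart. Whether each library is a mouse of its own is not in the labels, so the p-values measure the spread between libraries only. The labels state no age or sex of the mice.

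STAT3 is a transcription factor that cytokine receptors such as that for interleukin-6 activate through JAK kinases, and it is widely described as restraining the maturation and the antigen presentation of myeloid cells. TLR9 is an endosomal receptor for unmethylated CpG DNA that signals through MyD88 to NF-kappaB and to interferon regulatory factors. Myeloid precursors mature into neutrophils, which make their granule proteins in successive waves, or into monocytes, and factors of the C/EBP, KLF and IRF families direct these programmes.

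The deposited values are RPKM, reads scaled by gene length and by the mapped reads of the library, for 33531 gene symbols. Depth was estimated at 30940000 to 35030000 reads in the 6 libraries, from the step that 1 read makes in genes with low values, and 3 reads on a gene of 1 kb would then give an RPKM of 0.0856 to 0.0970 (a counting limit only). From 12141 to 12194 genes reached an RPKM of 1 in CpG1668 and 12271 to 12454 in CpG1668+Dox. Each of the 6 libraries correlated best with a library of its own group (Pearson r across genes 0.992 to 0.996 within groups and 0.988 to 0.994 between them). In a principal component analysis of these 6 libraries PC1 took 49.4% of the variance, and placed CpG1668 at -10.3 to -8.76 and CpG1668+Dox at 3.35, 9.59 and 16.2 for replicates 2, 1 and 3, so the doubly treated libraries lay further apart from each other than the CpG1668 libraries did. The labelled identity was read from a few genes. Cbfb was at 31.5, 30.1 and 29.4 RPKM in CpG1668 and 30.9, 31.2 and 33.1 in CpG1668+Dox, while Kit was at 15.8 to 16.9 and 17.1 to 18.7. Myh11 was at 1.51 to 1.60 and 1.46 to 1.66, and values per gene do not show the fusion itself. The erythroid and megakaryocyte factor Gata1 was at 89.2 to 94.7 and 85.6 to 93.1, above Ptprc (CD45) at 1.92 to 2.19 and 3.25 to 4.60 on this per-length scale. The progenitor marker Cd34 was at 0.192 to 0.317 and 0.291 to 0.487.

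Adding Dox to CpG1668 went with higher RNA of neutrophil granule proteins, monocyte markers, a set of myeloid transcription factors and leucocyte surface receptors. Most red-cell genes read had lower RNA, with a median log2 change of -0.32 over 20 erythroid markers, but few of them passed the test. Averaged over the 6 libraries, 12267 genes reached an RPKM of 1 and were tested. Of these, 264 were called higher and 17 lower in CpG1668+Dox, which is 2.15% and 0.139% of the genes tested and 2.29% together. A call is an adjusted p under 0.05 from limma on log2(RPKM + 1), with Benjamini-Hochberg adjustment over all 12267 genes, and all log2 changes and p-values of single genes below come from that fit. Because the pseudocount of 1 shrinks the log2 change at low RPKM, the ratio of the group means is given for some genes. As a ratio of means, 94 of the higher genes rose at least 2-fold and 18 at least 4-fold, whereas only Apol11b among the lower genes fell by that much. The median log2 change was 0.61 over the higher calls and -0.36 over the lower calls, against 0.02 over all genes tested, of which 58.7% had a positive change. In all 281 called genes the 6 values separated into the groups without overlap, as they did in 15.7% of all genes tested in the higher direction and 5.18% in the lower. An unadjusted limma p under 0.05 was reached by 1868 of the 12267 genes, the background for such counts in the lists below.

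These counts depended on single libraries. Without CpG1668 replicate 1, 2 or 3 the calls numbered 25, 14 and 78, and without CpG1668+Dox replicate 1, 2 or 3 they numbered 30, 407 and 188. Each called gene that was still tested kept its direction in those 6 fits. In the 4 fits with the fewest calls (without CpG1668 replicate 1, 2 or 3, or without CpG1668+Dox replicate 1), each gene list below with 6 or fewer calls had 0 to 3, and the longer ones are given with their lists. Fitting all 12 libraries gave 450 calls (3.67%), 425 higher and 25 lower, 253 of them shared with the fit of 6. The mean level of 11 late neutrophil genes also separated the groups (2.91 to 3.22 in CpG1668 and 4.06 to 4.99 in CpG1668+Dox, in log2(RPKM + 1)). Entered as a covariate after the data were seen, it left 0 calls by limma and 472 genes at an unadjusted p under 0.05, and since it takes up the difference between the groups by construction, its part in the other changes was not tested.

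**Figure D1:**
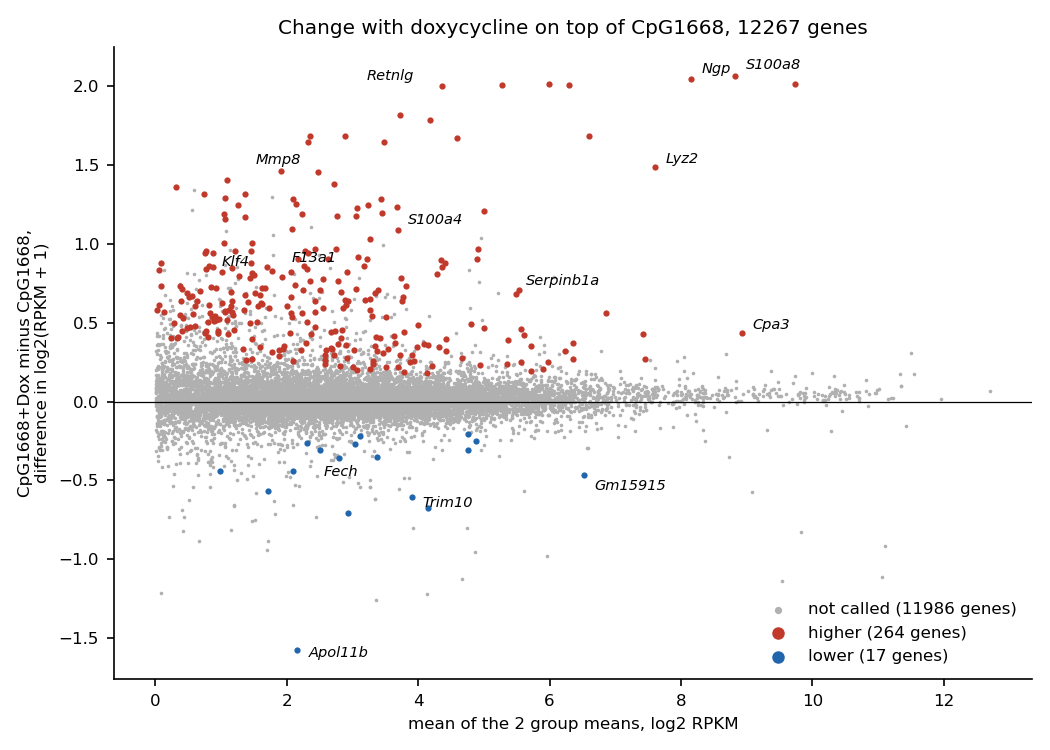
Each point is 1 of 12267 genes, with the mean of both group means in log2 RPKM on the horizontal axis and the limma difference in log2(RPKM + 1), CpG1668+Dox minus CpG1668, on the vertical axis. The 264 genes called higher reach a change of 2.06 (S100a8), and of the 17 called lower Apol11b lies apart at -1.58.

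The targeted gene was read first. Stat3 (ENSMUSG00000004040.16, chr11:100885098-100939540, minus strand) was at 17.6, 18.5 and 18.4 RPKM in CpG1668 replicates 1 to 3 and at 19.7, 19.4 and 19.03 in CpG1668+Dox. All 3 values with Dox lay above the 3 without it. The difference was small and not called (log2 change 0.087, 95% interval 0.0033 to 0.17, adjusted p = 0.310). The Stat3 transcript was thus not lower where the hairpin was labelled as switched on, and STAT3 protein is not in these files. Libraries are named throughout by the treatment on their label, not by a knockdown.

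The largest increases were in genes of neutrophil maturation. All 11 tested members of 12 secondary and tertiary granule genes, which encode proteins that neutrophils store from the myelocyte stage on, were called higher, with a median log2 change of 1.68. So were 10 of 11 tested members of 13 late neutrophil genes, with a median of 1.67. The exception was Cebpe, the C/EBP factor of terminal granulocyte maturation, at 1.42, 1.26 and 1.70 RPKM and then 4.39, 3.23 and 8.61 (log2 change 1.30, adjusted p = 0.0613). In the fit of all 12 libraries all 11 late neutrophil genes, Cebpe among them, and 10 of the 11 granule genes were called higher. The granule count was 0 without CpG1668 replicate 2, 1 without CpG1668 replicate 1 or CpG1668+Dox replicate 1, and 2 without CpG1668 replicate 3. The late neutrophil count was 4 without CpG1668 replicate 3 and 0 in the other 3 of those fits.

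Promoters of 4 granule genes and of Irf8 that hold a match to a C/EBP or STAT motif are shown, since C/EBP factors are known activators of granule genes and STAT3 is the target of the hairpin. The S100a8 promoter, which holds neither, is shown beside them because this gene had the largest change. The sequences are from RefSeq on GRCm38.p6 and run from 250 bases before to 50 after the gene's start. Capitals mark matches, on either strand, to the C/EBP motif TTNNGCAA or to the relaxed STAT palindrome TTCNNNGAA.
Ltf promoter, chr9:111019042-111019341, plus strand: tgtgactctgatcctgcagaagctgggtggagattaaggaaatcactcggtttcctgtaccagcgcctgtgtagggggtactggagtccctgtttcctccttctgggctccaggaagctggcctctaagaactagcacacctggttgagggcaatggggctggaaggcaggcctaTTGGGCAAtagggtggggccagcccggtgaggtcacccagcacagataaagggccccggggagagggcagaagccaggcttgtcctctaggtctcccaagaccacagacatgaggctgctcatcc
Ngp promoter, chr9:110419558-110419857, plus strand: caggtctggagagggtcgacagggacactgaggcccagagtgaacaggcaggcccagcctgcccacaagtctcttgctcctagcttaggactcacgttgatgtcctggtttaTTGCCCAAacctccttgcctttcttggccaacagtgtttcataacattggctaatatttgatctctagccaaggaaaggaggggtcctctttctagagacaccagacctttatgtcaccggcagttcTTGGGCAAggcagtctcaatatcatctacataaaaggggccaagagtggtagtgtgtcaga
Lcn2 promoter, chr2:32387690-32387989, minus strand: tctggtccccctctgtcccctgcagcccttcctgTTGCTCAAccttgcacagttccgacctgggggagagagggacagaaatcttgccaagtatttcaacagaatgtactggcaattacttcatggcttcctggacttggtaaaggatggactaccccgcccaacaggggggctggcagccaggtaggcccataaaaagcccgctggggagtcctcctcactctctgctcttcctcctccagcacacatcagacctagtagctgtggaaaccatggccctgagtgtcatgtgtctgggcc
Mmp8 promoter, chr9:7558179-7558478, plus strand: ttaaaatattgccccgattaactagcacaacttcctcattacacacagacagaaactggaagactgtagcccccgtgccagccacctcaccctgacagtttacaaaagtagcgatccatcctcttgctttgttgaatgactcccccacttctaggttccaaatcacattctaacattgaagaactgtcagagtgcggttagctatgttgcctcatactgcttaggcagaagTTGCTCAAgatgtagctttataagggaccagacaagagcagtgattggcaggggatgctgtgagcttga
Irf8 promoter, chr8:120736108-120736407, plus strand: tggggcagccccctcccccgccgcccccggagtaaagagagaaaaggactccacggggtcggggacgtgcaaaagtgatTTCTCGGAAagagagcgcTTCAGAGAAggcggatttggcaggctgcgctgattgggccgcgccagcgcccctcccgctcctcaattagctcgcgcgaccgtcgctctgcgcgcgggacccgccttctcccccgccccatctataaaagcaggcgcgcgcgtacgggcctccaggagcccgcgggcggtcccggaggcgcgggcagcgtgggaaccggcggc
S100a8 promoter, chr3:90668821-90669120, plus strand: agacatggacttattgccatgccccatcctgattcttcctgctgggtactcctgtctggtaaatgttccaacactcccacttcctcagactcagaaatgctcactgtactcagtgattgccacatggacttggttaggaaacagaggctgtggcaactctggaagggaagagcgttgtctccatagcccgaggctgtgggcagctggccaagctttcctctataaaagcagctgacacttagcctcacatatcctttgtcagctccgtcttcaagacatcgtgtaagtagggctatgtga
Counted from the start, the C/EBP letters began at -75 in Ltf, -138 and -11 in Ngp, -216 in Lcn2 and -19 in Mmp8. The relaxed STAT letters began at -171 and -153 in Irf8. The windows were chosen for their matches and show nothing of how common these are: no match was found in the windows read for Camp, S100a8, Cd177, Lyz2, Trim10 and a second Irf8 start, while those of Retnlg and S100a9 held C/EBP letters and that of Chil3 STAT letters. Over 249 promoters of 202 genes called higher, TTNNGCAA was present in 16.1%, against 8.4% of 10271 promoters of 8115 genes tested and 17.6% of 17 promoters of 11 genes called lower. GAGGAAGT, a PU.1 motif, was present in 11.2%, 3.3% and 0.0% in the same order, and both of these motifs were added after the data were seen. TTCNNNGAA was present in 8.4%, 6.7% and 17.6%, and the stricter TTCCNGGAA in 0.8%, 1.2% and 0.0%, and every TTCCNGGAA match is also a TTCNNNGAA match. These are matches of letters in a window of 300 bases and not measured binding.

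S100a8 (ENSMUSG00000056054.9, chr3:90668978-90670035, plus strand), 1 of the pair that forms the calprotectin of neutrophil cytosol, was at 155, 148 and 190.4 RPKM in CpG1668 and at 730.0, 406 and 1087 in CpG1668+Dox. Its partner S100a9 was at 284, 289 and 379.7 and 1340.2, 757 and 2043. Both groups were apart, and within CpG1668+Dox replicate 2 was the lowest and replicate 3 the highest for either gene. The means differed 4.51-fold for S100a8 (log2 change 2.06, SE 0.32, adjusted p = 0.0247) and 4.34-fold for S100a9 (2.01, SE 0.33, adjusted p = 0.0277).

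Ltf (ENSMUSG00000032496.7, chr9:111019271-111042767, plus strand), the iron-binding lactoferrin of secondary granules, was at 19.98, 22.6 and 28.9 RPKM and then 107, 63.2 and 139. Ngp, a granule protein of myelocytes, was at 94.7, 94.999 and 124 and then 456, 258 and 680.4. Lcn2, the siderophore-binding lipocalin, was at 12.3, 12.6 and 17.5 and then 62.8, 36.6 and 89.5. In each of these the lowest CpG1668+Dox library was replicate 2, at more than the highest CpG1668 library. The ratios of means were 4.32 (adjusted p = 0.0199), 4.44 (0.0251) and 4.45 (0.0228). Camp, the precursor of the antimicrobial peptide cathelicidin, and Cd177, a neutrophil surface glycoprotein, rose 4.42-fold and 4.28-fold (adjusted p = 0.0254 and 0.0280).

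Further granule enzymes and surface markers of late cells followed the same order. Mmp8, the neutrophil collagenase, was at 2.20, 2.34 and 2.99 RPKM in CpG1668 and 9.32, 6.82 and 9.84 in CpG1668+Dox (log2 change 1.45, adjusted p = 0.00734). Ly6g, the surface antigen used to recognise mouse neutrophils, was at 1.53, 1.60 and 2.45 and then 9.12, 5.39 and 10.6 (1.68, adjusted p = 0.0192). Replicate 2 was again the lowest CpG1668+Dox library in both. Mmp9, gelatinase B, rose 4.38-fold (adjusted p = 0.0164). With the adjusted p in brackets, Retnlg, a resistin-like secreted protein, rose 4.34-fold (0.0169) and Wfdc21, of the whey acidic protein family, 4.02-fold (0.0233). Pglyrp1, which binds bacterial peptidoglycan, rose 4.17-fold (0.0233). Anxa1, an annexin abundant in neutrophils, rose 3.54-fold (0.0221). Mcemp1, a membrane protein of mast cells and myeloid cells, rose 2.85-fold (0.0129).

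The summed RPKM of the 13 late neutrophil genes ran from 470.2 to 612 in CpG1668 and from 1252 to 3309 in CpG1668+Dox, beside 79.2 to 161 in PBS and 424 to 1751 in Dox. In CpG1668 and CpG1668+Dox most of this sum was S100a8 and S100a9, so it says little of the other members. In bulk RNA of a sort, more cells of a type and more RNA per cell cannot be told apart. Host neutrophils, which NSG mice keep, would carry the same transcripts, and whether any passed the gate was not tested.

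Primary granule enzymes, made earlier at the promyelocyte stage, did not pass the test. Of 8 tested, 0 were called by limma in either direction and 7 had an unadjusted p under 0.05, although all 8 had their 3 CpG1668+Dox values above their 3 CpG1668 values (15.7% of all genes tested did), and the median log2 change was 0.74. Mpo, myeloperoxidase, was at 52.9, 43.2 and 47.2 RPKM and then 80.1, 58.04 and 123, and Elane, neutrophil elastase, at 20.4, 17.5 and 18.6 and then 37.9, 24.04 and 67.7. Replicate 3 was the highest and replicate 2 the lowest of the CpG1668+Dox values in both, and that spread was wide (log2 change 0.79, SE 0.24, adjusted p = 0.166 for Mpo and 1.03, SE 0.32, adjusted p = 0.172 for Elane). Without CpG1668+Dox replicate 2, 5 of the 8 were called higher. The members with the smallest p were the cystatin Cst7 (0.31, adjusted p = 0.0834) and proteinase 3, Prtn3 (0.83, adjusted p = 0.147).

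**Figure D2:**
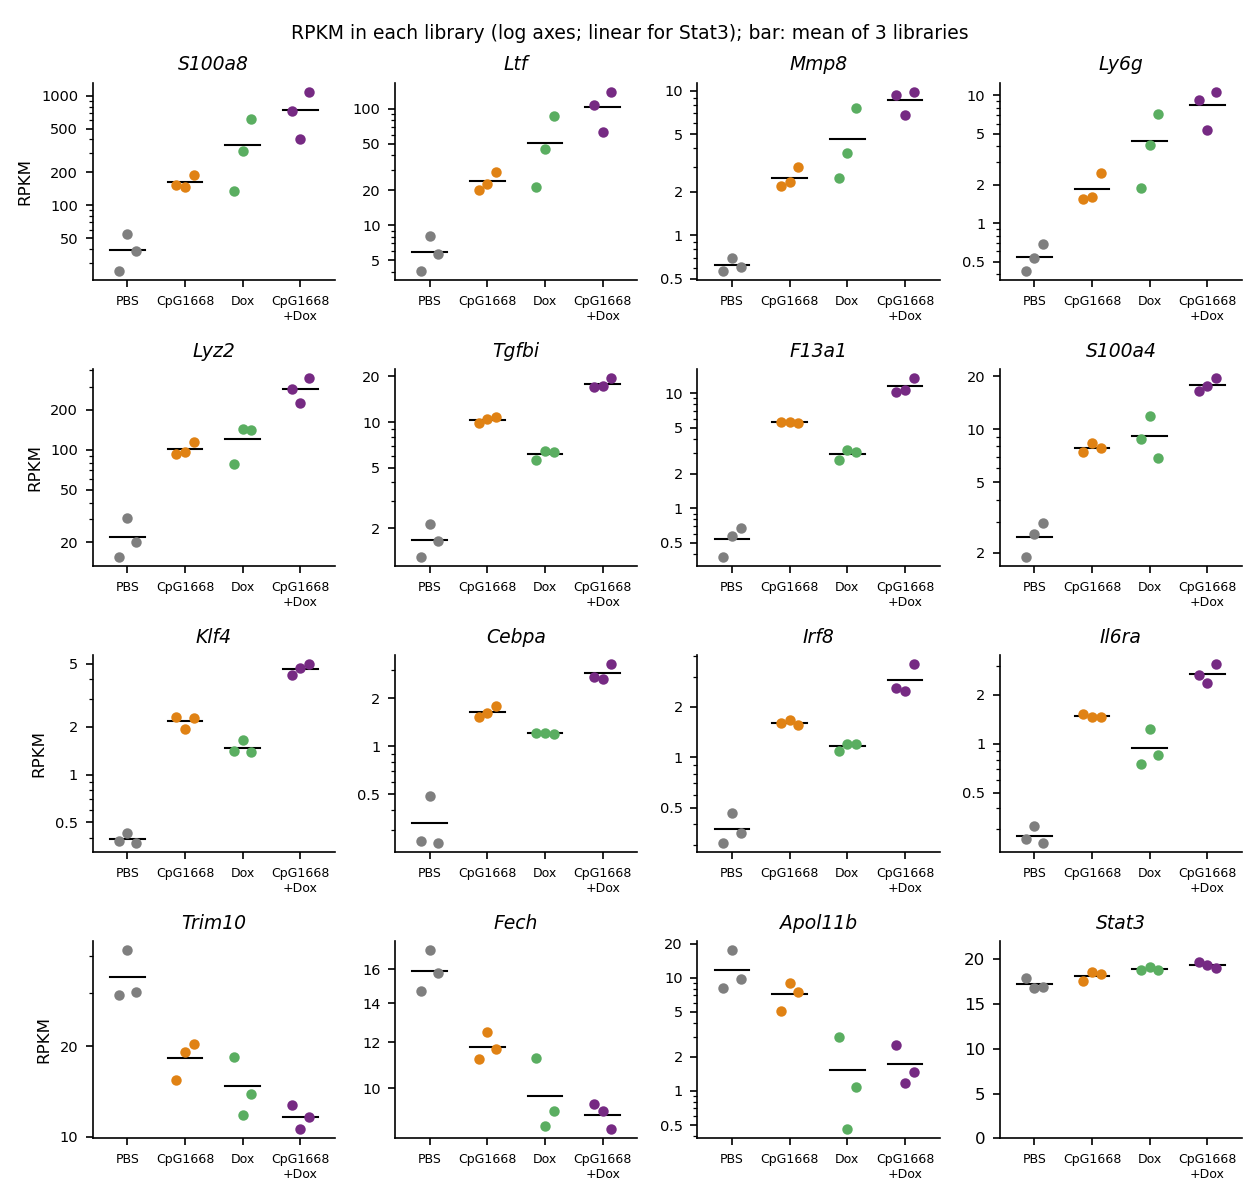
RPKM of 16 genes in each of the 12 libraries, on log axes except for Stat3, with points for replicates 1 to 3 from left to right and a bar at the mean of 3. In S100a8, Ltf, Mmp8, Ly6g and Lyz2 the CpG1668+Dox values lie above all CpG1668 values with replicate 2 lowest, and Trim10, Fech and Apol11b show the opposite order of the groups.

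Monocyte markers were also higher, by smaller factors and with less spread. Of 22 tested among 24 listed, 15 were called higher and 0 lower, with a median log2 change of 0.62. F13a1, the catalytic subunit of coagulation factor XIII that monocytes store, was at 5.60, 5.57 and 5.53 RPKM in CpG1668 and 10.2, 10.7 and 13.5 in CpG1668+Dox. The CpG1668 values were nearly equal to each other, and the lowest value with Dox was above all of them (2.06-fold, log2 change 0.91, adjusted p = 0.00920). Tgfbi, a secreted matrix protein of monocytes and macrophages, was at 9.79, 10.5 and 10.8 and then 16.9, 17.3 and 19.5 (0.73, SE 0.061, adjusted p = 0.00608). It was 1 of the 5 genes named by the selection rule that kept their call without any 1 of the 6 libraries, the others being Klf4, S100a4, S100a6 and Clec4a3.

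Lyz2 (ENSMUSG00000069516.8, chr10:117277331-117282321, minus strand), the lysozyme shared by monocytes, macrophages and neutrophils, was at 93.2, 95.98 and 114 RPKM and then 288, 227 and 348, a 2.85-fold ratio of means (1.48, adjusted p = 0.00920). As with the granule genes, replicate 2 was its lowest value with Dox and replicate 3 its highest. The chemokine gene Ccl9 was at 3.49, 3.23 and 3.36 and then 6.41, 5.52 and 6.47 (0.71, adjusted p = 0.00608). Csf1r, the receptor of the monocyte growth factor M-CSF, was at 4.89 to 5.67 in CpG1668 and rose to between 7.54 and 10.3 (adjusted p = 0.0233). Itgam, CD11b, was at 4.29 to 4.79 and rose to between 9.10 and 15.1 (0.0148). Ccr2, the receptor that brings monocytes out of the marrow, did not pass the test (5.32 to 6.41 and 7.90 to 10.7 RPKM, 0.53, adjusted p = 0.0613). It was called higher in the fit of all 12 libraries (adjusted p = 0.0243). The monocyte count was 2, 1 and 5 without CpG1668 replicates 1, 2 and 3 and 4 without CpG1668+Dox replicate 1.

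The list of 20 myeloid transcription factors had 14 tested members. Limma called 6 higher and 0 lower, all 14 had a positive change, and the median was 0.40. Klf4 (ENSMUSG00000003032.8, chr4:55527143-55532466, minus strand), which directs monocyte differentiation, was at 2.30, 1.94 and 2.27 RPKM in CpG1668 and 4.27, 4.67 and 4.97 in CpG1668+Dox. The groups were well apart, with a ratio of means of 2.14 (log2 change 0.83, SE 0.070, adjusted p = 0.00608). Cebpa, the factor that commits progenitors to the granulocyte and monocyte lines, was at 1.53, 1.63 and 1.79 and then 2.74, 2.64 and 3.28 (0.55, adjusted p = 0.0220). Its relative Cebpb was at 6.11, 5.39 and 5.63 and then 9.26, 8.57 and 10.6 (0.64, adjusted p = 0.0140). Neither pair of groups overlapped. Klf2 rose 2.67-fold (adjusted p = 0.0202) from 1.18 to 1.95 RPKM in CpG1668.

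Irf8 (ENSMUSG00000041515.10, chr8:120736358-120756694, plus strand), named in the series title and needed for monocyte and dendritic cell development, was at 1.60, 1.67 and 1.56 RPKM in CpG1668 and 2.61, 2.48 and 3.60 in CpG1668+Dox. All values with Dox were above those without, and replicate 3 was the highest. It was called close to the threshold (1.80-fold, log2 change 0.57, 95% interval 0.32 to 0.82, adjusted p = 0.0457). It was called in 4 of 13 alternative fits, with an adjusted p from 0.00940 (all 12 libraries) to 0.201 (no filter on low values) and a log2 change from 0.44 to 0.79. Without CpG1668 replicate 1, 2 or 3 its adjusted p was 0.149, 0.152 and 0.117, and without CpG1668+Dox replicate 1 it was 0.104. In the other groups Irf8 was at 0.308, 0.464 and 0.355 in PBS and 1.09, 1.21 and 1.20 in Dox, so its order was PBS, Dox, CpG1668 and CpG1668+Dox, with no overlap between neighbours. Irf5, a factor downstream of MyD88, was at 8.62 to 9.61 in CpG1668 and rose to between 11.3 and 11.7 (0.32, adjusted p = 0.0220). Spi1, which encodes PU.1, missed the threshold at 19.2 to 20.7 and 22.4 to 25.2 (0.25, adjusted p = 0.0613). In the fit of all 12 libraries it was called higher (adjusted p = 0.0470).

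Few genes of STAT signalling were called. Of 12 STAT and JAK genes tested, 1 was called higher and 0 lower (median 0.057). That gene was Il6ra, the binding subunit of the interleukin-6 receptor, at 1.52, 1.45 and 1.47 RPKM and then 2.64, 2.35 and 3.08, without overlap (1.82-fold, 0.57, adjusted p = 0.0217). Among 17 tested STAT3 targets, 1 was called higher, 0 lower, and the median was 0.026, from 10 positive and 7 negative changes. In each direction 4 members did not overlap between the groups (15.7% of all genes tested did so upwards and 5.18% downwards), and 8 of the 17 had an unadjusted p under 0.05. The called gene was Socs3, the feedback inhibitor that STAT3 induces, at 1.12, 1.22 and 1.78 and then 2.60, 3.01 and 2.33 (1.93-fold, 0.63, adjusted p = 0.0451). Its replicates spread in both groups, and all 3 with Dox were the higher ones. The apoptosis inhibitor Bcl2l1 (12.6 to 15.1 and 11.1 to 11.5 RPKM, -0.26, adjusted p = 0.0796) and the STAT5 feedback gene Cish (12.9 to 13.6 and 9.34 to 11.7, -0.30, adjusted p = 0.0965) had negative changes that did not pass.

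The TLR9 receptor itself was low. Tlr9 was at 0.332, 0.358 and 0.287 RPKM in CpG1668 and 0.468, 0.356 and 0.511 in CpG1668+Dox, below the filter, and replicate 2 with Dox lay within the range of CpG1668. Of 17 tested genes of its pathway, 3 were called higher and 0 lower (median 0.12), Irf5 and Irf8 among them. The third was Cnpy3, a chaperone of Toll-like receptors, at 10.4, 9.93 and 10.4 and then 13.4, 12.3 and 13.8 (0.33, adjusted p = 0.0220). Unc93b1, which carries the receptor to endosomes, did not pass (5.86 to 5.997 and 7.50 to 10.9, 0.52, adjusted p = 0.0649). Of 6 other Toll-like receptors tested, 2 endosomal RNA sensors were called higher. Tlr7 was at 0.582, 0.554 and 0.699 and then 1.50, 1.32 and 1.57 (2.39-fold, adjusted p = 0.0169), and Tlr13 at 1.37, 1.35 and 1.65 and then 2.92, 2.61 and 3.41 (2.04-fold, adjusted p = 0.0169). Neither overlapped between the groups.

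The lists of genes induced through the TLR9 pathway gave no calls in the fit of 6 libraries. Of 13 NF-kappaB targets and cytokines 0 were called by limma (3 at an unadjusted p under 0.05, median 0.076). Il1b, the precursor of interleukin-1 beta, was at 0.994, 0.912 and 2.30 RPKM and then 3.40, 3.73 and 2.90 (0.90, adjusted p = 0.0786), with replicate 3 of CpG1668 well above the other replicates of its group. Of 15 interferon-stimulated genes 0 were called (5 at an unadjusted p under 0.05, median -0.068), and of 7 interferon-inducible GTPases 0 (3 at that p, median -0.046). Rsad2, the antiviral viperin, was at 9.74, 17.9 and 17.2 and then 6.85, 3.83 and 6.17, lower in every library with Dox but not called (-1.25, SE 0.25, adjusted p = 0.0564). Isg15 was at 25.5, 45.4 and 45.8 and then 25.5, 14.4 and 18.5 (-0.95, adjusted p = 0.137), and Ifi27l2a had a positive change (0.47, adjusted p = 0.0665). With all 12 libraries, Il1b (adjusted p = 0.0368) and Ifi27l2a (0.0320) were called higher. With the filter at a mean RPKM of 5, 1 interferon-stimulated gene was called lower, Rsad2 (0.0494).

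Antigen presentation genes were called mainly in class II. In class II 5 of 8 tested genes were called higher and 0 lower (median 0.53), and of 15 class I genes 1, H2-Q6 (0.40, adjusted p = 0.0268, median of the list 0.058). Cd74, the invariant chain, was at 7.96, 6.13 and 8.53 RPKM and then 12.3, 11.7 and 14.1 (0.69, adjusted p = 0.0287). Ctss, the protease that trims it, was at 13.6, 15.1 and 15.2 and then 25.5, 25.9 and 32.2 (0.88, adjusted p = 0.00975). The class II chain gene H2-Ab1 was at 1.36 to 1.60 and rose to between 2.45 and 2.85 (adjusted p = 0.0140), and H2-Eb1 was at 1.81 to 2.64 and rose to between 3.53 and 3.98 (0.0281). With Dox but no CpG1668 they were at 3.99 to 6.84 and 4.71 to 8.37, a difference that was not tested. The fifth was H2-DMb1 (0.48, adjusted p = 0.0475). In the fit of 12 libraries the class II count was 2.

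Receptors and effector enzymes of phagocytes were higher in part. Of 12 Fc receptor and NADPH oxidase genes, 4 were called higher and 0 lower (median 0.43). Cybb, the catalytic subunit of the oxidase, was at 7.182, 6.90 and 7.27 RPKM and then 18.5, 13.5 and 23.5 (2.60-fold, adjusted p = 0.0199), and its cytosolic partner Ncf1 at 5.77, 5.84 and 6.62 and then 14.8, 10.6 and 22.1 (2.61-fold, adjusted p = 0.0425). Replicate 2 was the lowest value with Dox for both. Tyrobp, the signalling adaptor of many myeloid receptors, rose 2.01-fold (0.0129) and the inhibitory Fc receptor Fcgr2b 1.29-fold (0.0281). Of 9 C-type lectin receptors 4 were called higher (median 0.67), namely Clec4a1, Clec4a2, Clec4a3 and the beta-glucan receptor Clec7a. Clec4a3 was at 5.28, 4.56 and 5.63 and then 10.6, 9.09 and 9.86 (0.82, adjusted p = 0.00782), and the Clec4a genes are close paralogs whose reads may have been shared. Of 5 chemokine receptors tested, Cxcr2 of neutrophils (4.06-fold, 0.0228) and Cx3cr1 of monocytes (2.06-fold, 0.0233) were called higher.

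Some adhesion molecules and general leucocyte markers were called higher. Of 11 integrins and adhesion partners 5 were called higher (median 0.18), among them Itgb2, the common beta chain of leucocyte integrins, at 13.002, 13.6 and 15.1 RPKM and then 27.3, 22.2 and 31.4 (0.90, adjusted p = 0.0169). Itgal, the alpha chain of the integrin LFA-1, rose 1.44-fold (0.0315). Of 8 pan-leucocyte genes 4 were called higher (median 0.22). Ptprc, the phosphatase CD45, was at 2.19, 1.92 and 2.11 and then 3.95, 3.25 and 4.60 (0.68, adjusted p = 0.0228), and Cd52 rose 2.76-fold, Cd53 1.97-fold and Ptpn6 1.19-fold. Of 10 growth factor receptors tested, 3 were called higher and 0 lower (median 0.039), Csf3r at 2.15, 1.93 and 2.32 and then 6.22, 4.65 and 9.17 (3.13-fold, adjusted p = 0.0238), Csf1r as above and Csf2ra 1.56-fold (0.0140). Another 4 members had all values with Dox below all values without it (5.18% of all genes tested did) and were not called. They included the common beta chain genes Csf2rb (-0.15, adjusted p = 0.307) and Csf2rb2 (-0.18, 0.314) and the erythropoietin receptor gene Epor (-0.14, 0.211). In all, 8 of the 10 had an unadjusted p under 0.05.

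S100 and annexin genes held 2 of the 5 genes named by the selection rule that kept their call without any 1 of the 6 libraries. Of 14 tested 5 were called higher and 0 lower (median 0.19), of which Anxa1 is described above. S100a4, a calcium-binding protein of motile cells, was at 7.48, 8.33 and 7.82 RPKM and then 16.5, 17.6 and 19.5 (2.27-fold, 1.09, SE 0.066, adjusted p = 0.00332). S100a6 was at 3.95, 5.07 and 5.13 and then 11.4, 10.96 and 13.3 (2.52-fold, 1.17, adjusted p = 0.00608). In neither did replicate 2 with Dox stand far below the other replicates, unlike in the granule genes. Anxa2 rose 1.80-fold (0.00869) and S100a11 1.66-fold (0.0220). Among 22 lysosome and cathepsin genes, 6 were called higher, 0 lower, and all 22 had a positive change (median 0.17). Psap, the precursor of the saposins, was at 90.1, 94.1 and 95.003 and then 133, 125 and 156 (0.56, adjusted p = 0.0214), and the protease inhibitor Cst3 at 37.2, 41.6 and 40.3 and then 57.5, 52.2 and 55.5 (0.46, adjusted p = 0.0139).

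**Figure D3:**
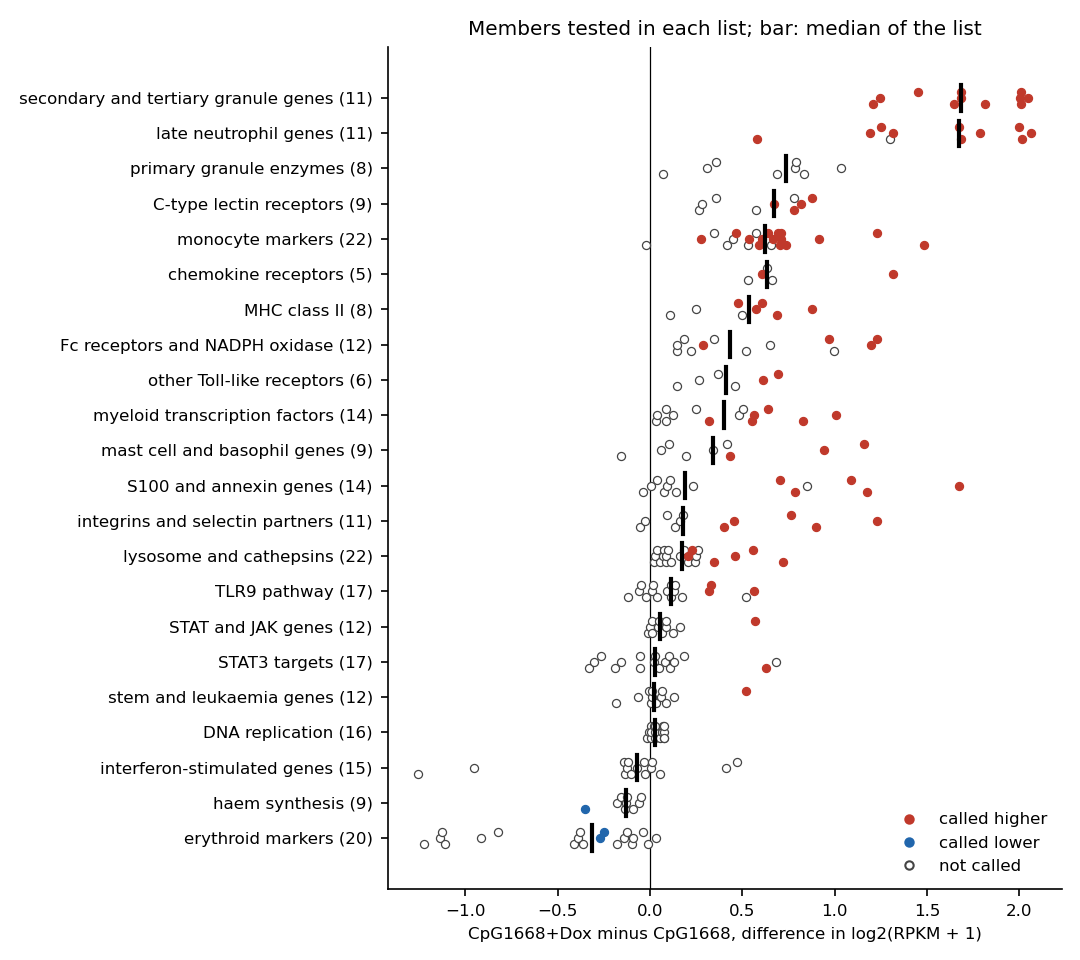
Log2 change, CpG1668+Dox minus CpG1668, of every tested member of 22 gene lists, with the number tested in brackets, filled points for called genes and a bar at the list's median. The medians run from 1.68 in secondary and tertiary granule genes to -0.32 in erythroid markers.

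Genes called lower were few, and apart from Apol11b, Trim10 and mt-Ts1 those named here changed by less than 0.5 on the log2 scale. Apol11b (ENSMUSG00000091694.9, chr15:77633946-77643286, minus strand), an apolipoprotein L family member, was at 5.08, 8.91 and 7.40 RPKM in CpG1668 and 2.53, 1.18 and 1.48 in CpG1668+Dox. The groups did not overlap, and the log2 change was -1.58 (SE 0.22, adjusted p = 0.0216). Trim10 (ENSMUSG00000073400.6, chr17:36869574-36877833, plus strand), a tripartite motif family gene needed for terminal erythroid differentiation, was at 15.4, 19.03 and 20.2 and then 12.7, 10.6 and 11.6 (-0.60, adjusted p = 0.0328). Fech, the enzyme that puts iron into haem, was at 11.2, 12.5 and 11.7 and then 9.39, 9.14 and 8.50 (-0.35, adjusted p = 0.0233). Hbq1b, a globin gene, fell by 0.44 on the log2 scale (0.0294), and the amino acid transporter gene Slc38a5 fell by 0.36 (0.0286).

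Of 20 tested among 21 listed erythroid markers, 0 were called higher and 2 lower, Ank1 (the ankyrin of the red-cell membrane) and Tfrc (the transferrin receptor). Ank1 was at 9.43, 8.97 and 8.88 RPKM and then 7.71, 7.04 and 7.36 (-0.27, adjusted p = 0.0301), and Tfrc at 33.5, 30.2 and 32.96 and then 26.7, 26.9 and 27.1 (-0.25, adjusted p = 0.0392). Both calls were lost in the fit of all 12 libraries, and both were lost whichever of the 6 libraries was left out. The median of the 20 was -0.32, and 19 had a negative change. Of the 20, 14 had all 3 values with Dox below all 3 without it (5.18% of all genes tested did). The band 3 gene Slc4a1 (18.02 to 29.3 and 7.002 to 14.9, -1.22, adjusted p = 0.0689) and the haem enzyme gene Alas2 (23.1 to 43.5 and 9.96 to 22.95, -1.12, adjusted p = 0.142) had larger changes that did not pass. Hbb-bs, a beta-globin gene with near-identical copies, was at 1974, 3127 and 3572 and then 1916, 874 and 1309.7 (-1.11, adjusted p = 0.142). For Hbb-bs and Alas2 the lowest CpG1668 library, replicate 1, nearly met CpG1668+Dox replicate 1, and replicate 2 with Dox was the lowest of all. The summed RPKM of the list was 6939 to 11268 in CpG1668 and 4071 to 6719.6 in CpG1668+Dox. Gata1, the leading erythroid factor, was not called (-0.040, adjusted p = 0.742). Of 9 haem synthesis genes Fech alone was called, and all 9 had a negative change (median -0.13).

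Other genes called lower belonged to no list. Prxl2a fell by 0.31 (0.0276), Fyb2 by 0.31 (0.0277) and the RNA-binding protein gene Cpeb4 by 0.27 (0.0251) on the log2 scale. The mitochondrial serine tRNA gene mt-Ts1, a very short feature, was at 8.84, 9.24 and 11.2 RPKM and then 5.58, 5.98 and 5.15 (-0.71, adjusted p = 0.0148). Of 13 mitochondrially encoded protein and rRNA genes, mt-Nd3 was called higher (0.27, adjusted p = 0.0406) and 0 lower (median 0.079). Gm15915, an antisense RNA gene (ENSMUSG00000085723.2, chr10:93674218-93683322, minus strand) chosen after its values were seen, was called lower in each of the 14 alternative fits without a covariate. It was at 112, 105 and 105 RPKM in CpG1668 and 78.1, 77.9 and 75.3 in CpG1668+Dox, and at 116, 110.0 and 104 in PBS and 78.1, 80.8 and 80.4 in Dox (-0.47, SE 0.040, adjusted p = 0.00608). The 6 libraries with Dox and the 6 without it did not overlap. Whether its reads were counted by strand is not stated, so reads of an overlapping gene cannot be told apart.

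**Figure D4:**
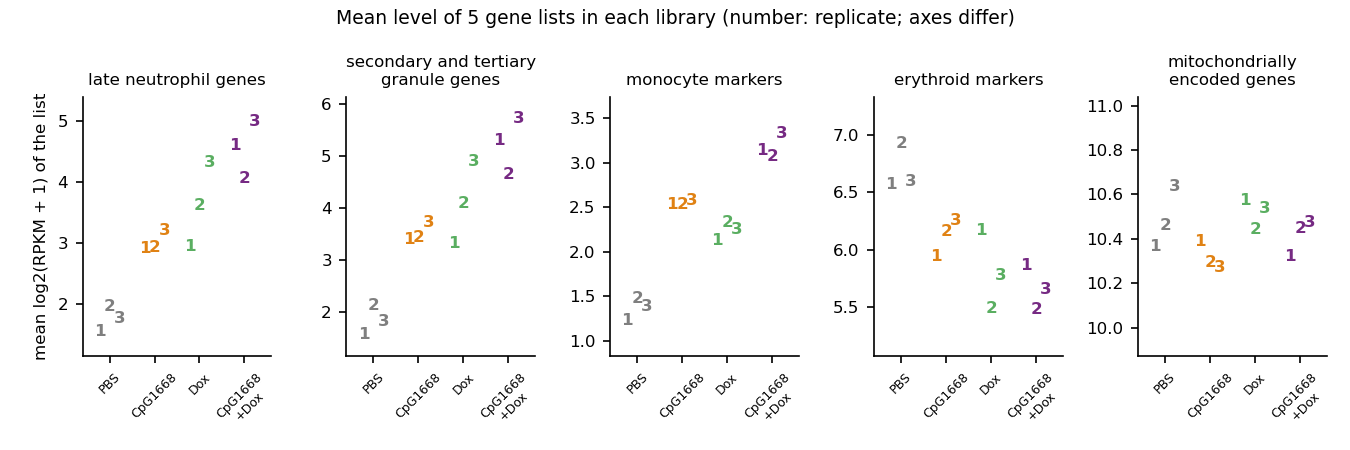
Mean log2(RPKM + 1) of 5 gene lists in each of the 12 libraries, shown as replicate numbers, with separate vertical axes. Late neutrophil genes run from 4.06 to 4.99 in CpG1668+Dox and from 2.91 to 3.22 in CpG1668, and within CpG1668+Dox replicate 3 is highest and replicate 2 lowest.

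Markers of other cells that a spleen sort could hold were read from lists. Of 9 tested mast cell and basophil genes, 3 were called higher and 0 lower (median 0.34). As a sum the 10 listed were abundant in every group, but not each of them was. One, below the filter, stayed under 0.1 RPKM in all 6 CpG1668 and CpG1668+Dox libraries. The 10 summed to 1404 to 1502 RPKM in CpG1668 and 1663 to 1722 in CpG1668+Dox, beside 1363 to 1526 in PBS and 1487 to 1852 in Dox. Whether the leukaemia cells or other cells carried these transcripts was not tested. Cpa3, the mast cell carboxypeptidase and an abundant transcript of these libraries, was at 394, 424 and 431 RPKM and then 572, 559 and 558 (0.43, SE 0.046, adjusted p = 0.0107). The basophil proteases Prss34 and Mcpt8 rose 3.50-fold and 2.96-fold from CpG1668 means of 0.928 and 0.854 RPKM (adjusted p = 0.0181 and 0.0233). Of 9 tested splenic macrophage markers, Adgre1 (F4/80) was called higher (0.66, adjusted p = 0.0268), 8 were not called, and the summed level of the 14 listed was 28.2 to 41.3 in CpG1668 and 33.4 to 53.1 in CpG1668+Dox. Of the 12 B and plasma cell markers in the files, 8 stayed below 0.1 RPKM in all 6 libraries, including Ms4a1 and Pax5, and Ighm alone was tested. It was at 2.88, 3.46 and 3.31 RPKM and then 5.62, 5.66 and 8.63 (0.84, adjusted p = 0.0341). The 11 T and NK cell markers summed to 0.730 to 0.946 and 1.07 to 1.19, with 9 of them below 0.1 RPKM throughout.

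Genes that differ between the sexes were read as a further marker of mixed cells. Xist, which is expressed from the inactive X chromosome, was at 46.2 to 67.4 RPKM and then 43.8 to 52.4. The 4 Y-linked genes summed to 2.12 to 2.31 RPKM in CpG1668 and 3.01 to 3.93 in CpG1668+Dox, beside 1.11 to 2.38 in PBS and 1.67 to 1.88 in Dox. Eif2s3y was at 1.14, 1.21 and 1.25 and then 1.70, 1.60 and 1.99 (0.33, adjusted p = 0.0818) and Ddx3y at 0.822, 0.691 and 0.834 and then 1.18, 1.08 and 1.44 (0.32, adjusted p = 0.131), apart in both but not called. The labels give the sex of neither the line nor the hosts, and the part of other cells in the changes above was not tested.

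Stem cell, cycling and stress genes gave few calls. Of 12 stem and leukaemia genes tested, Cd93 was called higher (0.52, adjusted p = 0.0220), 0 lower, and the median was 0.022. Of 15 mitosis genes and 16 DNA replication genes 0 were called by limma (1 and 0 at an unadjusted p under 0.05, medians 0.043 and 0.029). The replication clamp gene Pcna was at 96.8, 94.9 and 100.4 RPKM and then 106, 101 and 101, and Cdk1 at 18.6, 18.3 and 18.7 and then 19.7, 19.5 and 19.6. These were shifts of 0.079 and 0.079 on the log2 scale that did not pass (adjusted p = 0.405 and 0.290). Of 20 tested enzymes of DNA methylation and histone modification 0 were called (2 at that p), with changes between -0.12 and 0.13, the extremes being the histone demethylase genes Kdm6a and Kdm6b. The p53, BCL2, integrated stress response, hypoxia, sterol and immediate-early lists also gave 0 calls. Members at an unadjusted p under 0.05 were, in that order, 1 of 12, 1 of 9, 3 of 14, 3 of 15, 1 of 21 and 0 of 17. Over all genes tested the count was 1868 of 12267. The immediate-early genes, which respond to handling, summed to 894 to 1473 RPKM in CpG1668 and 861 to 1192 in CpG1668+Dox and overlapped.

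Whether Dox changed the cells differently with CpG1668 than without it was tested as an interaction over all 12 libraries, (CpG1668+Dox minus CpG1668) minus (Dox minus PBS). Limma called 0 of 12267 genes (0%), with 812 at an unadjusted p under 0.05 and a smallest adjusted p of 0.322. The comparison of Dox with PBS shares no library with that of CpG1668+Dox with CpG1668. In it 262 of the 264 higher genes had a positive difference and 15 of the 17 lower genes a negative one, where 56.4% of all genes tested were positive. A p that misses the threshold does not show that the changes were alike, and the intervals were wide for the granule genes. For S100a8 the log2 change was 2.96 without CpG1668 and 2.06 with it (interaction -0.90, 95% interval -2.41 to 0.62, adjusted p = 0.905). Over the 8 primary granule enzymes the median change was 1.59 without CpG1668 and 0.74 with it. Mpo changed by 2.45 and 0.79 (interaction -1.66, 95% interval -2.43 to -0.89, unadjusted p = 0.000595, adjusted p = 0.420). Elane changed by 2.10 and 1.03 (-1.07, -2.03 to -0.11, adjusted p = 0.732). These 2 intervals left out 0, but neither gene was called.

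For the genes with less spread the intervals were narrower. Klf4 changed by 0.83 without CpG1668 and 0.83 with it, and the 95% interval of the difference was -0.21 to 0.21. Irf8 changed by 0.66 and 0.57 (-0.39 to 0.21). Both start from a lower level in PBS, where the pseudocount shrinks more, and as ratios of means Klf4 rose 3.76-fold and 2.14-fold and Irf8 3.10-fold and 1.80-fold. Tgfbi changed by 1.42 from its low PBS level of 1.29 to 2.12 RPKM and by 0.73 on top of CpG1668, a difference of -0.68 (-0.98 to -0.39, unadjusted p = 0.000357, adjusted p = 0.420). F13a1 (1.37 and 0.91, unadjusted p = 0.00662, adjusted p = 0.523) and Lyz2 (2.40 and 1.48, unadjusted p = 0.0309, adjusted p = 0.729) also had the smaller change on top of CpG1668, and neither passed. For Trim10 the changes were -1.16 and -0.60 (interaction adjusted p = 0.735), and for Fech -0.67 and -0.35 (0.696).

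The 3 genes with the smallest interaction p were not among the 281. The stress-induced mTOR inhibitor gene Ddit4 was at 15.6, 15.4 and 15.4 RPKM in PBS and 24.8, 25.1 and 23.9 in Dox, and at 22.7, 25.5 and 27.3 in CpG1668 and 21.6, 25.8 and 26.9 in CpG1668+Dox. Dox alone went with a log2 change of 0.64, and on top of CpG1668 the groups overlapped (-0.024, interaction -0.66, adjusted p = 0.322). Ypel3 went the other way, -0.66 with Dox alone and 0.10 on top of CpG1668 (interaction 0.76, adjusted p = 0.322). The predicted gene Gm5586 had changes of 0.38 and -0.070 (interaction -0.45, adjusted p = 0.322). None of the 3 passed.

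**Figure D5:**
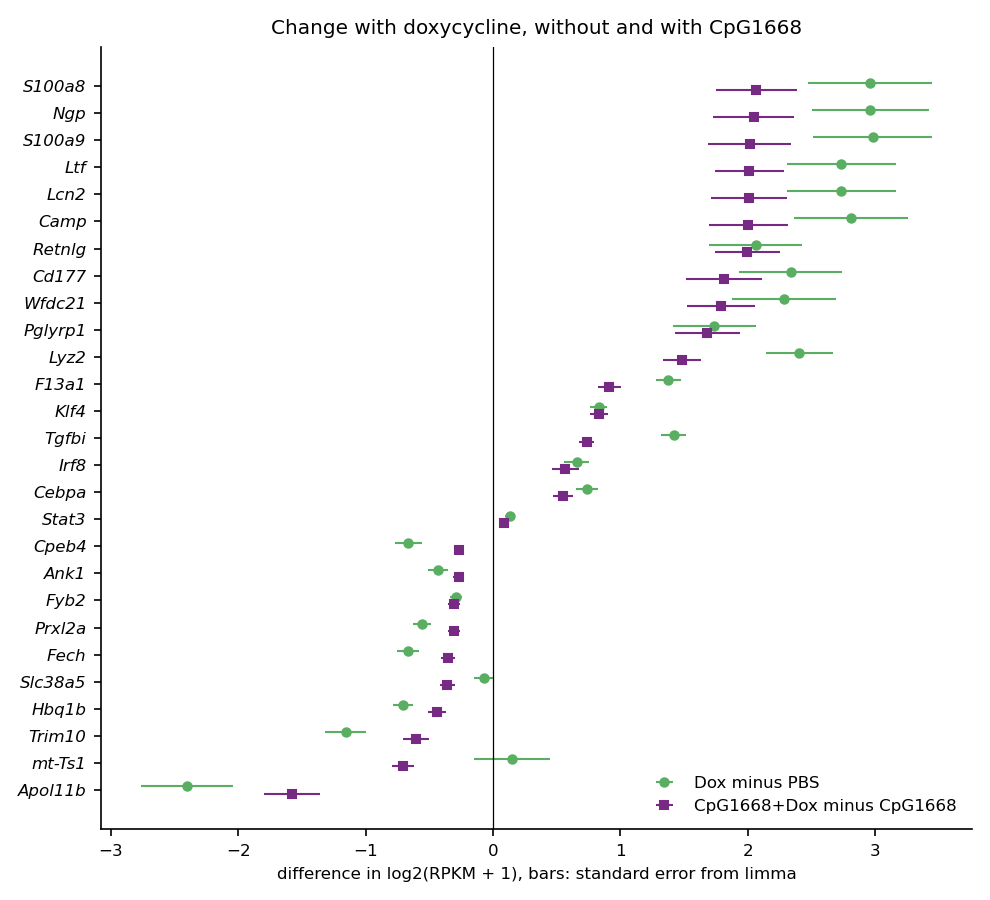
Log2 change with Dox in 27 genes, without CpG1668 (Dox minus PBS, circles) and on top of CpG1668 (squares), with bars of 1 standard error from limma. Directions agree in all genes shown except mt-Ts1, and the neutrophil genes have the wider bars.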

How the data were processed

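Per the submitters' processing notes, STAR 2.7.9 and Partek 7.18.0723 were used with the mm10 genome, and their counting rule and strand setting are not given in the sources used. The authors deposited RPKM for 33531 symbols in each of 12 libraries, and 32391 symbols (96.6%) matched GENCODE M21, which gave the positions on GRCm38. Values became log2(RPKM + 1), and genes averaging an RPKM of 1 or more across the 6 libraries were tested in limma 3.58.1 (R 4.3.3) with an intensity trend, at 4 residual degrees of freedom, or 8 for the interaction over 12 libraries. The fits were also run on simulated data with noise drawn separately for each gene and library. Spread that genes share within a library was therefore not tested. Alternatives used a pseudocount of 0.1, no filter or a filter at 5, and changed the scaling, the trend, the replicate block, the libraries and a covariate. Members and gene lists were chosen with earlier results of these data known. Named genes are Stat3, Irf8, Tlr9, Cbfb, the 10 largest changes each way at a mean of at least 5, up to 4 called members a list, and the 3 smallest interaction p. Mpo, Elane, Cebpe, Ccr2, Spi1, Unc93b1, Cish, Isg15, H2-DMb1, Kit, Cd34 and Myh11 were chosen after their values were seen. So were Gata1, Csf2rb, Csf2rb2, Epor, Alas2, Slc4a1, Hbb-bs, Xist, Gm15915 and the families in the closing section.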

Additional observations from a re-analysis of the deposited data

How the results depend on the processing

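The 281 calls became 57 (35 higher, 22 lower) with no filter on low values (31469 genes tested), 153 (140 higher, 13 lower) at a mean RPKM of at least 5, and 450 with all 12 libraries, and ranged from 14 to 407 when 1 library was left out. The late neutrophil covariate, an addition chosen after seeing the data, left 0 calls in the fit of 6 libraries (472 at an unadjusted p under 0.05) and 0 in that of 12 (994), and in these 240 and 258 of the 281 genes kept their sign. The other alternatives gave 227 to 304 calls, and in each fit without the covariate all of the 281 still tested kept their sign. The interaction gave 8 calls with no filter (3 positive, 5 negative), 1 without CpG1668 replicate 1, 1 without CpG1668+Dox replicate 1 and 0 otherwise, and the cause was not tested. The change of Ddit4, near 0, ran from -0.095 to 0.068 when 1 library was left out, and was positive at 0.034 without CpG1668 replicate 3 and 0.068 without CpG1668+Dox replicate 1. The replicate numbers did not pair the libraries (same-number correlations of deviations -0.091, -0.062 and -0.14, others up to 0.14), and a replicate block gave 227 calls. Depth is an estimate from RPKM steps, and very short genes near an RPKM of 1 rest on few reads.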

Other observations

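Gene families outside the lists, picked after their values were seen, also held calls among their tested members. Receptors for inflammatory cytokines were among them. Of 6 interferon and tumour necrosis factor receptors tested, 3 were called higher and 0 lower, against 2.15% of all genes called higher. Ifngr1, the ligand-binding chain of the interferon-gamma receptor, was at 6.59, 6.004 and 5.85 RPKM in CpG1668 and 13.3, 10.2 and 13.9 in CpG1668+Dox (2.03-fold, adjusted p = 0.0140). Tnfrsf1b was at 2.88, 2.85 and 2.72 and then 6.71, 5.45 and 6.31 (2.19-fold, 0.00583), and Tnfrsf1a rose 2.28-fold (0.0228). The groups did not overlap in any of the 3. The interferon alpha receptor genes Ifnar1 and Ifnar2 changed by 0.076 and 0.22 on the log2 scale and were not called.

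Paired activating and inhibitory receptors of myeloid cells were a further group. Of 8 Cd300 genes tested 5 were called higher, and all 3 Pilr genes. Cd300ld was at 1.15, 1.03 and 1.33 and then 2.92, 3.22 and 2.39 RPKM (2.43-fold, adjusted p = 0.0139), and Pilra at 1.53, 1.30 and 1.63 and then 3.49, 2.68 and 3.84 (2.24-fold, 0.0211). These are clusters of similar genes whose reads may have been shared. Both tested Mrgpra genes, Mrgpra2a and Mrgpra2b, rose 3.78-fold and 5.61-fold (0.0419 and 0.0268). Of 7 Slfn genes 3 were called higher, Slfn4 from 1.18 to 1.67 RPKM by 4.10-fold (0.0231), while Slfn14 had a change of -0.53 that did not pass (0.195). Of 4 Ifitm genes 2 were called higher, Ifitm3 at 19.7, 21.4 and 20.2 and then 37.3, 36.7 and 43.6 (0.91, adjusted p = 0.00583) and Ifitm6 at 4.36, 4.96 and 4.98 and then 18.3, 12.2 and 21.8 (1.64, adjusted p = 0.0121). Of 5 galectin genes, Lgals1 and Lgals3 rose 1.88-fold and 1.81-fold (0.0211 and 0.00648), and the abundant Lgals9 was at 116 to 120.3 and 115 to 117 RPKM (-0.020). Of 4 Serpinb genes tested 1 was called higher and 0 lower. This gene, Serpinb1a, an inhibitor of neutrophil serine proteases, was at 32.2, 35.8 and 34.4 and then 56.7, 54.2 and 55.1 RPKM (0.68, SE 0.046, adjusted p = 0.00332). It was at 74.3, 84.4 and 82.5 in PBS and 72.0, 93.4 and 109.8 in Dox. Every value with CpG1668, with or without Dox, was thus below every value without CpG1668. Its change with Dox alone was 0.17 (interaction 0.51, 95% interval 0.15 to 0.87, adjusted p = 0.574).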
